A study of Mus musculus with 9 samples.

Results

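The comparison set mouse liver from which the perivenous sheath had been left out (NPV, zones 1 and 2 of the hepatic acinus, collected by laser capture microdissection) against a scrape of the whole liver section from the slide (SC). It used 6 Illumina bead arrays, 3 per group, paired by the number in their labels. Of the 45281 probes on the array, 17819 had a detection p-value under 0.05 on at least 3 of the 6 arrays and were its members; they represented 12535 genes. The series holds 9 arrays in all, and the other 3 (PV) carry the glutamine synthetase subcompartment captured around the central vein. Every sample was total RNA of liver tissue fixed on a glass slide, with no treatment named. The labels name no strain, sex or age and tie no array to an animal, so any p-value here measures only how far these samples spread, and that spread may be technical.

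Blood enters the liver lobule beside the portal tract, passes along the sinusoids and leaves through the central vein, and hepatocytes along this path divide the work. Periportal hepatocytes are known for urea synthesis, gluconeogenesis and the breakdown of amino acids, and those around the central vein for cytochrome P450 metabolism. A thin sheath of hepatocytes touching the central vein takes up the remaining ammonium and glutamate and makes glutamine, and Wnt and R-spondin signals from the vein's endothelium maintain its gene programme.

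Levels are given as log2 intensity after background correction and quantile normalization, and differences as NPV minus SC on that scale. The arrays detected 17861, 16819 and 18145 probes in NPV 1 to 3, and 17467, 16987 and 18721 probes in SC 1 to 3. Pair 3 differed from the rest in its whole profile: NPV 3 and SC 3 correlated at 0.993 with each other but at 0.937 to 0.955 with the arrays numbered 1 and 2, which correlated at 0.983 to 0.990 among themselves, over the probes tested. A difference that moved by over 1.5 times when any 1 pair was left out is therefore given with that pair's effect. As the tissue check, the 3 markers of the comparison lay where the labels would place them: Rhbg and Rspo3, of the perivenous sheath and the central vein, were lower on every NPV array than on every SC array, and Gls2, of periportal hepatocytes, was higher on every one.

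The profile of zones 1 and 2 was close to that of the whole section for most genes. Lower in NPV in all 3 pairs were genes of the sheath (Rhbg, Slc1a2, Glul, Oat), the R-spondin gene of the central vein (Rspo3) and immunoglobulin chains (Ighm, Igkc), with differences of -0.52 to -1.40. No probe passed an adjusted p of 0.05 in limma with the pair as a block, in either direction (0 higher and 0 lower, 0% of 17819). For the genes given a difference or a bound here, the adjusted p ran from 0.591 (Rhbg), the smallest of all, to 0.867 (Axin2 and Gpm6a). At an unadjusted p under 0.05 there were 1179 probes (6.62%), 557 of them higher in NPV (3.13%) and 622 lower (3.49%). This near balance depended on the scaling: with equal array medians in place of quantiles, 168 probes were higher and 2121 lower at that threshold, and the median difference of all genes was -0.15. The median difference over genes was -0.01, and the 1st and 99th percentiles were -0.55 and 0.46. With 2 residual degrees of freedom the test had little to work with, so the groups of genes below are described by their values and counts. Where the prior variance was allowed to follow intensity, 1 probe was higher (0.00561%) and 14 were lower (0.0786%) at an adjusted p under 0.05 in limma. The 14 held all 3 probes of Slc1a2 and probes of Rhbg, Glul, Oat, Igkc, Ighm, Bst2, Gna14 and Meg3. The others were of Srr and of unnamed transcripts. The Ighm probe among the 14 differed by -1.48 and is not the one whose levels are given below.

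**Figure D1:**
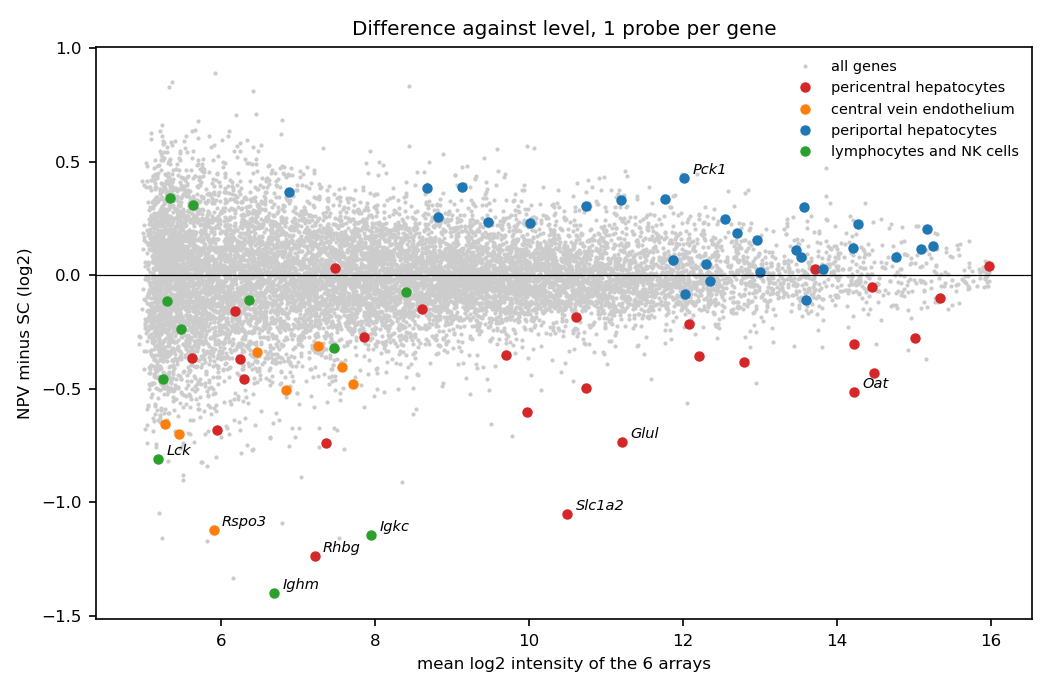
Each point is a gene, with the mean log2 intensity of the 6 arrays on the x axis and NPV minus SC (log2) on the y axis; coloured points are members of 4 gene lists. Rhbg, Slc1a2, Glul and Oat lie below 0 at levels from dim to bright, the central vein genes lie below 0 at low levels, and most periportal genes lie slightly above 0.

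Genes of the hepatocytes next to the central vein were lower in NPV than in the whole section. Rhbg, which encodes an ammonium transporter of the hepatocyte membrane, had levels of 7.01, 6.61 and 6.16 in NPV 1 to 3, against 8.20, 7.93 and 7.37 in SC 1 to 3. All NPV arrays lay below all SC arrays, and each pair differed by a similar amount. Rhbg was lower by 2.36-fold in NPV (difference -1.24, SE 0.12, n = 3 pairs). Its adjusted p in limma was 0.591, and 0.0106 to 1.00 over 16 alternative settings. Slc1a2, a glutamate transporter, had levels of 10.13, 10.69 and 9.09 in NPV, against 11.20, 11.58 and 10.29 in SC. NPV 2 lay above SC 3, so the groups overlapped, but Slc1a2 was lower in NPV in all 3 pairs. The difference was -1.05 (SE 0.13, adjusted p in limma 0.700, 0.00167 to 1.00 over the alternatives), and the other 2 Slc1a2 probes differed by -1.07 and -0.95.

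Glul, which encodes glutamine synthetase and whose protein defines the sheath, had levels of 11.09, 10.94 and 10.48 in NPV, against 11.58, 11.70 and 11.44 in SC. The groups did not overlap, and Glul was 1.67-fold lower in NPV (difference -0.74, SE 0.14, adjusted p in limma 0.700, 0.0228 to 1.00 over the alternatives). Glul was still detected on all 3 NPV arrays, where the lowest detected signal was 5.11 to 5.27. Oat, the ornithine aminotransferase that feeds carbon from ornithine to glutamate, had levels of 14.10, 13.92 and 13.86 in NPV, against 14.54, 14.38 and 14.51 in SC. These groups did not overlap either, at a difference of -0.52 (SE 0.12). Rdh9, a retinol dehydrogenase family member, differed by -0.60 (SE 0.14), with levels of 9.48 to 9.93 in NPV and 10.07 to 10.41 in SC. In bulk samples like these, fewer cells of a type and less RNA per cell cannot be told apart.

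**Figure D2:**
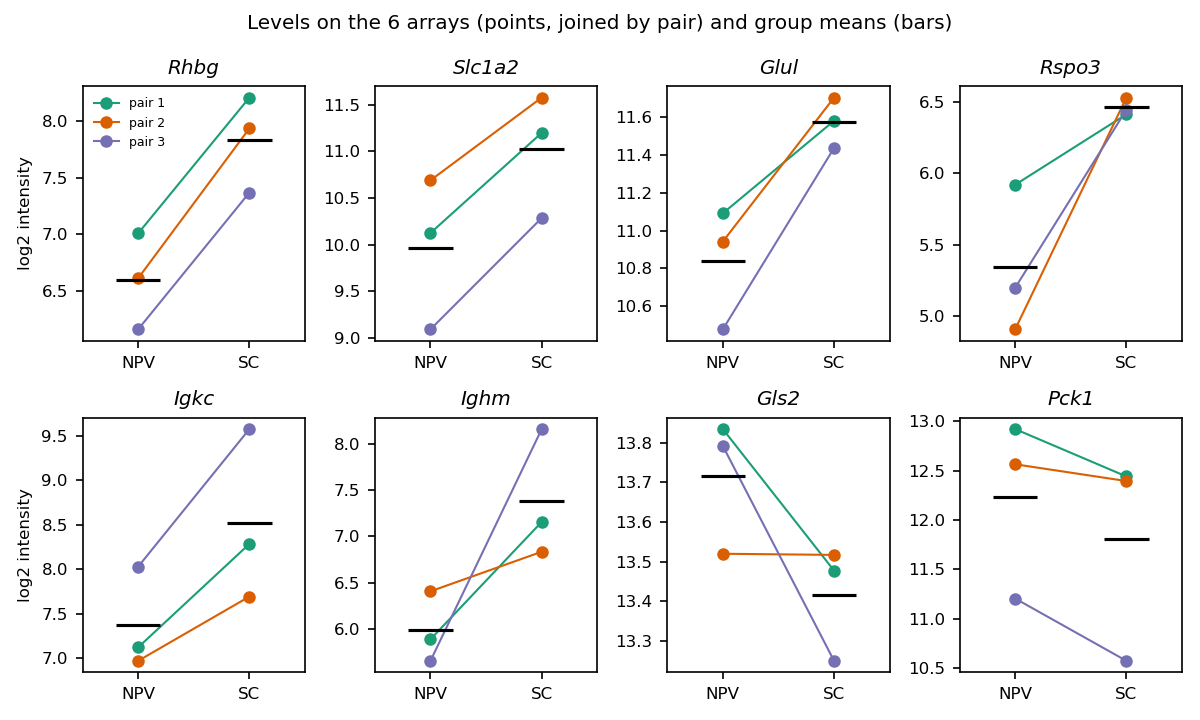
Log2 intensity of 8 genes on the 3 NPV arrays (left in each panel) and the 3 SC arrays (right), with a line joining each pair and black bars for group means; the y axes differ between panels and do not start at 0. Rhbg, Slc1a2, Glul, Rspo3, Igkc and Ighm were lower in NPV in all 3 pairs, while Gls2 and Pck1 were higher in all 3.

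Of 29 genes listed as pericentral, 27 were measured and 24 had negative differences, where 6559 of all 12535 genes had them. Their median was -0.36, against -0.01 over all genes, with pair medians of -0.37, -0.15 and -0.47. 16 of the 27 were lower in all 3 pairs, where 15.2% of all genes were, and 5 were lower on every NPV array than on every SC array, where 2.12% of genes were. At an unadjusted p under 0.05 there were 10 lower and 0 higher, where 3.29% and 2.74% of genes were. Without pair 3 the median was -0.30. This list and those below were chosen with earlier results of these data known. Their counts therefore describe the lists and are not independent support. Slc13a3, a dicarboxylate transporter, differed by -0.74 (SE 0.21), and Axin2, a feedback target of Wnt signalling, by -0.16 (SE 0.14; -0.09 without pair 1 or pair 3, -0.30 without pair 2). Cyp2e1, a P450 expressed across the pericentral part of the lobule, was at 15.91 to 16.03 on the 6 arrays, at the ceiling of the scale (16.03), so its probe gives no measure of a difference. These 3 were chosen after their values were seen.

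Because Wnt signalling acts through TCF/LEF factors, the promoters of the leading pericentral genes were searched for TCF/LEF-type words (CTTTG followed by any pair of A or T letters, on both strands). The promoters are RefSeq's, on GRCm38.p6, from 250 bases before to 50 bases after the gene start. Slc1a2 (chr2:102706188-102706487, plus strand) holds 1 word, in capitals, which ends 201 bases before the start, and Glul (chr1:153899679-153899978, plus strand) holds none; the pair is shown as the leading members with a promoter in the table.
Slc1a2: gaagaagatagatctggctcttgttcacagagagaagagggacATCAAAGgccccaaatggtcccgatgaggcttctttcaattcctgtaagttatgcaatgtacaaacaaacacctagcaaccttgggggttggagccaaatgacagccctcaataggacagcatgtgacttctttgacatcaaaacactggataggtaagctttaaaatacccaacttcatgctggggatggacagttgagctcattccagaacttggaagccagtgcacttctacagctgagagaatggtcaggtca
Glul: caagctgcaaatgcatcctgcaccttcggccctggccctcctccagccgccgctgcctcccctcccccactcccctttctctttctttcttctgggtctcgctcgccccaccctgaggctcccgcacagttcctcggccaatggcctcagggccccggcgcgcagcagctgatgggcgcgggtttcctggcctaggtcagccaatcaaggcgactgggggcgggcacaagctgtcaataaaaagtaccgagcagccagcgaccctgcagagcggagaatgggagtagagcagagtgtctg
A word occurred in 16.9% of the 32851 promoters of all genes, and in 27.3% of the 22 promoters of the 19 pericentral genes with an entry. A match is a description of the letters in the window and not a binding site. Rhbg and Rspo3 have no entry there.

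Other targets of Wnt/beta-catenin signalling in liver differed unevenly. Tnfrsf19, a receptor of the TNF receptor family, had levels of 6.14, 6.42 and 5.75 in NPV, against 6.63, 7.18 and 6.49 in SC. It differed by -0.66 (SE 0.13), with no overlap. Sp5, a transcription factor, differed by -0.67 (SE 0.21), with no overlap, and by -0.43 without pair 3. Lgr5, the R-spondin receptor, differed by -0.36 (SE 0.17), by -0.14 without pair 3, and was detected on 2 of 3 NPV and 2 of 3 SC arrays. Tbx3 differed by -0.27 (SE 0.16), and by -0.16 without pair 3 or -0.47 without pair 2. Zfp703 differed by 0.49 (SE 0.22), and by 0.81 without pair 3 or 0.26 without pair 2, and was detected on 1 of 3 SC arrays. Of 16 listed targets, 9 were measured, with a median of -0.21, pair medians of -0.39, 0.10 and -0.50, and 2 of 9 lower at an unadjusted p under 0.05, where 3.29% of all genes were. Pair 2 thus went the other way, and the median was -0.47 without it and -0.15 without pair 1.

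Genes of the endothelium of the central vein had negative differences, 7 of the 8 measured in all 3 pairs, where 15.2% of all genes were. Rspo3, the R-spondin ligand that this endothelium supplies to the sheath, had levels of 5.92, 4.90 and 5.20 in NPV, against 6.42, 6.53 and 6.45 in SC. The groups did not overlap, Rspo3 was detected on 2 of 3 NPV arrays and on all 3 SC arrays, and it differed by -1.13 (SE 0.22, adjusted p in limma 0.700, 0.179 to 1.00 over 15 alternatives). The Wnt ligand gene Wnt2 had levels of 8.19, 8.55 and 5.68 in NPV, against 8.67, 8.85 and 6.33 in SC. Pair 3 lay far below the others in both groups, and within pairs Wnt2 differed by -0.48 (SE 0.13). Cdh13, an adhesion protein, differed by -0.70 (SE 0.13) and was detected on 1 of 3 NPV arrays. Lhx6, a transcription factor, differed by -0.65 (SE 0.20), and by -0.41 without pair 1, and was detected on 1 of 3 NPV and 2 of 3 SC arrays. Selp, the P-selectin that captures leukocytes, differed by -0.34 (SE 0.13). All 8 of the 10 listed genes that were measured had negative differences, where 6559 of all 12535 genes had them. The median was -0.49, and 6 were lower at an unadjusted p under 0.05, where 3.29% of all genes were. In 2 of the 8 every NPV array lay below every SC array, where 2.12% of all genes did. The median was -0.32 without pair 3.

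Genes of sinusoidal and general endothelium were mostly lower, by smaller amounts. Tek, the receptor for angiopoietins, had levels of 7.46, 7.22 and 6.12 in NPV, against 7.53, 7.81 and 7.48 in SC. Most of its difference of -0.68 (SE 0.24) came from pair 3, and without that pair it was -0.33. Icam2 differed by -0.41 (SE 0.12), Ramp2 by -0.41 (SE 0.16; -0.23 without pair 3) and Stab2, a scavenger receptor of sinusoidal endothelium, by -0.35 (SE 0.12). Flt4, the receptor for VEGF-C, was not well above background on any SC array and was at least 1.13-fold higher in NPV. It passed the detection filter through the NPV arrays alone. Of 28 listed genes 23 were measured, 20 of them with negative differences, where 6559 of all 12535 genes had them. The median of -0.16 was -0.07 without pair 3. At an unadjusted p under 0.05, 4 were lower and 1, Flt4, was higher, where 3.29% and 2.74% of all genes were. Vwf, the von Willebrand factor of larger vessels, differed by -0.54 (SE 0.24), most of it from pair 2, and by -0.16 without that pair. The median of the 10 measured genes of portal and arterial endothelium was 0.03.

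Immunoglobulin chains and some lymphocyte genes were also lower in NPV. Ighm, the mu heavy chain, had levels of 5.89, 6.41 and 5.65 in NPV, against 7.16, 6.83 and 8.16 in SC. It differed by -1.40 (SE 0.36) and by -0.85 without pair 3, and a further Ighm probe differed by -1.48. Igkc, the kappa light chain, had levels of 7.12, 6.97 and 8.03 in NPV, against 8.28, 7.69 and 9.57 in SC. It was lower in NPV in all 3 pairs although the groups overlapped, at a difference of -1.14 (SE 0.18, adjusted p in limma 0.700, 0.0249 to 1.00 over the alternatives). Lck, the T cell kinase, was not well above background on any NPV array and was detected on all 3 SC arrays, which made it at least 1.34-fold lower in NPV. Cd3d differed by -0.46 (SE 0.12) and Coro1a by -0.32 (SE 0.12). Cd3d was near background, detected on 1 of 3 NPV and 2 of 3 SC arrays. Of 24 listed genes, 11 were measured, with a median of -0.24, which was -0.20 without pair 1 and -0.43 without pair 2. At an unadjusted p under 0.05, 5 were lower and 1 higher, where 3.29% and 2.74% of all genes were; 1 of the 5, Lck, passed the detection filter through the SC arrays alone. Cd4, Cd8a, Cd3e, Cd3g and Ms4a1 did not pass the filter, so the group rests on few of its defining genes, and the part of lymphocytes in it was not tested.

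**Figure D3:**
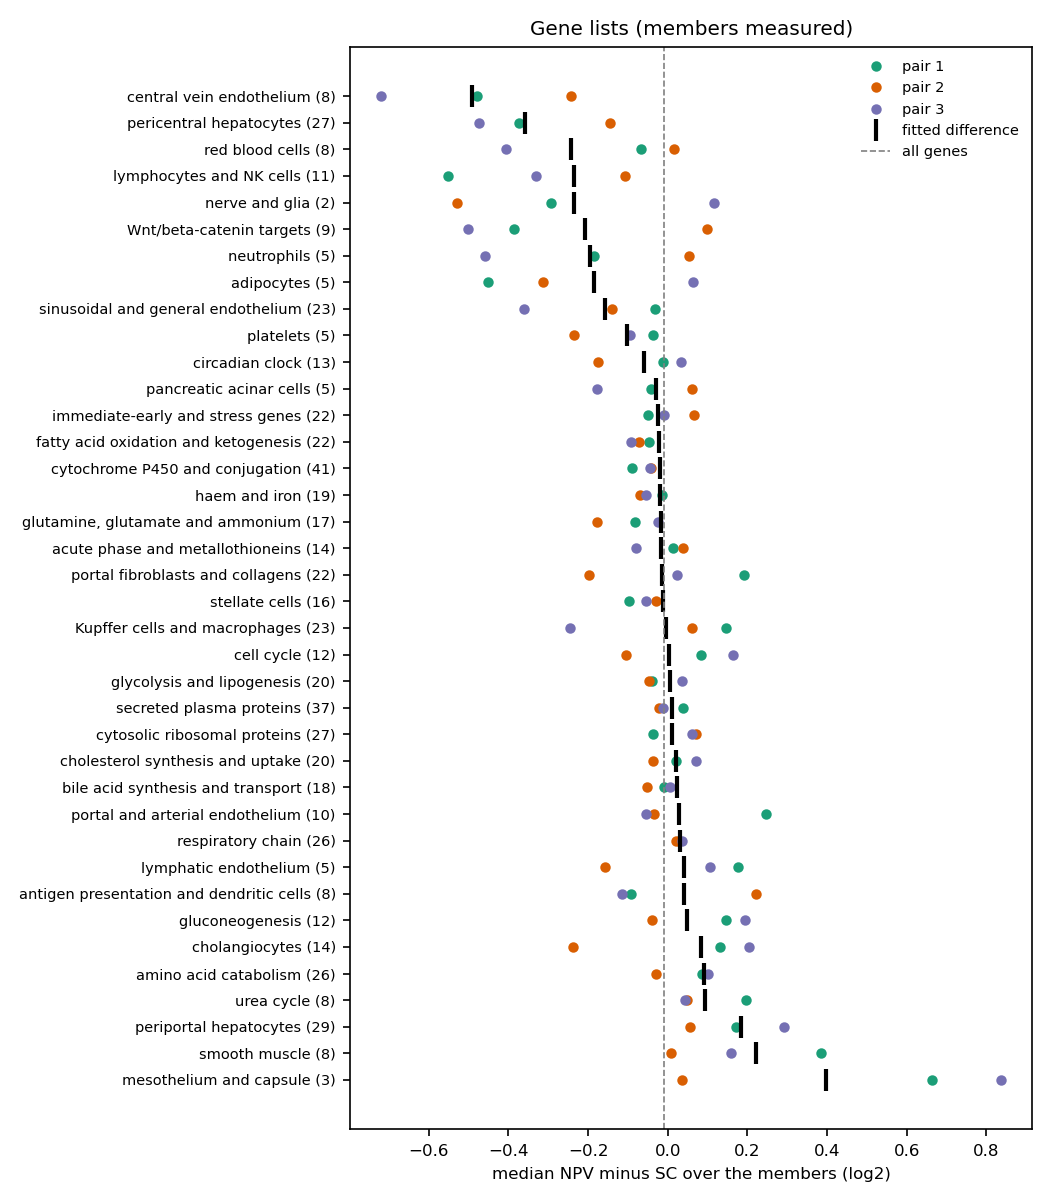
Median NPV minus SC difference (log2) of each of 38 gene lists, with the number of measured members in brackets; coloured points are the 3 pairs, black ticks the fitted difference and the dashed line the median of all genes. Central vein endothelium and pericentral hepatocytes lie to the left in all 3 pairs, and periportal hepatocytes to the right in all 3. This is not particular to them. Lymphocytes, sinusoidal and general endothelium and platelets are among others left of 0 in all 3 pairs. Smooth muscle and mesothelium are among others to the right. Most remaining lists lie near the line or on both sides of it.

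Lists for other cells of the whole section had medians on both sides of 0. Several were close to that of all genes: -0.01 for Kupffer cells and macrophages (23 of 24 measured, 0 past an unadjusted p of 0.05 either way), -0.01 for stellate cells, -0.01 for portal fibroblasts and collagens, and 0.08 for cholangiocytes. Of all genes, 3.29% were lower and 2.74% higher at that threshold, so a count of 0 among 23 is near the share of all genes. Lists of other blood cells had negative medians as well, of -0.24 for red blood cells (8 of 15 measured, -0.09 without pair 3), -0.19 for neutrophils (5 of 13 measured, all 5 negative) and -0.10 for platelets (5 of 8 measured, all 5 negative). Over all 12535 genes, 6559 were negative. Adipocyte genes had a median of -0.18 (5 of 10 measured) and nerve and glia genes of -0.24 (2 of 10 measured). Each of these lists except platelets and stellate cells had at least 1 pair whose median was above 0. Among single genes, Angptl6 differed by -0.45 (SE 0.13) with no overlap, Reln, a secreted protein of stellate cells, by -0.27 (SE 0.12), C1qa by -0.31 (SE 0.15) and -0.15 without pair 2, Marco, a scavenger receptor of Kupffer cells, by -0.41 (SE 0.25) and -0.06 without pair 3, and the water channel Aqp1 by -0.28 (SE 0.13). These genes do not stand for their lists, which had members in both directions. In stellate cells 8 genes were negative and 8 positive. In Kupffer cells and macrophages 12 were negative and 11 positive, and in cholangiocytes 4 were negative and 10 positive. The beta-globin gene Hbb-b1 differed by -0.37 (SE 0.12) and Hbb-bt by -0.33 (SE 0.14; -0.21 without pair 3); these are near-identical copies, so their probes may share signal. Both were lower in NPV in all 3 pairs.

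Smooth muscle and capsule lists had medians above 0 (0.22 and 0.40), with few members. The smooth muscle median was 0.05 without pair 1, and the capsule median was 0.35 without pair 3 and 0.81 without pair 2. The capsule median of 0.40 was the value of Gpm6a (SE 0.36), whose pairs differed by 0.05, -0.42 and 1.56. Gpm6a differed by -0.18 without pair 3 and by 0.81 without pair 2. Actg2, the smooth muscle gamma actin, had levels of 9.11, 4.58 and 5.41 in NPV, against 7.27, 4.54 and 4.62 in SC. It was high in the arrays numbered 1, and in PV 1, at 11.37, so its difference of 0.89 (SE 0.32) moved with that number and was 0.42 without pair 1. Cpe, a carboxypeptidase of the mesothelium list, was not well above background on any SC array and had levels of 6.13, 5.60 and 5.64 in NPV, at least 1.55-fold higher there. It passed the detection filter through the NPV arrays alone. Ptgis, the prostacyclin synthase, differed by 0.39 (SE 0.16), and by 0.25 without pair 1. Only 3 of 11 mesothelium genes were measured, and Msln and Upk3b did not pass the filter.

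Periportal genes were slightly higher in NPV. Gls2, the liver glutaminase, had levels of 13.84, 13.52 and 13.79 in NPV, against 13.48, 13.52 and 13.25 in SC. Every NPV array lay above every SC array, though in pair 2 by almost nothing, and the difference was 0.30 (SE 0.15, adjusted p in limma 0.781, 0.506 to 1.00 over the alternatives). It was 0.18 without pair 3 and 0.45 without pair 2. Pck1, the enzyme that commits oxaloacetate to gluconeogenesis, had levels of 12.92, 12.56 and 11.20 in NPV, against 12.44, 12.39 and 10.57 in SC. It was higher in NPV in all 3 pairs, by 0.43 (SE 0.14). Apoc2 differed by 0.38 (SE 0.13), Tat, which degrades tyrosine, by 0.37 (SE 0.13), Sds, the serine dehydratase, by 0.34 (SE 0.12) and Sult5a1 by 0.39 (SE 0.16; 0.59 without pair 1). Another Apoc2 probe differed by 0.03.

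Of 30 listed periportal genes 29 were measured, and 26 had positive differences, where 5976 of all 12535 genes had them. The median was 0.18, with pair medians of 0.17, 0.06 and 0.29, and 0.15 without pair 3. 11 were higher in all 3 pairs, where 12.8% of all genes were, and 4 were higher and 0 lower at an unadjusted p under 0.05, where 2.74% and 3.29% of all genes were. In the urea cycle, which starts with Cps1, all 8 genes were measured and the median was 0.09, with Cps1 at 0.23 (SE 0.13; 0.14 without pair 1) and Ass1 at 0.20 (SE 0.12). Of 17 measured genes of glutamine, glutamate and ammonium handling, the 4 lower at an unadjusted p under 0.05 were Rhbg, Slc1a2, Glul and Oat, and the list's median was -0.02. Slc7a2, a transporter of cationic amino acids, differed by 0.32 (SE 0.14), and by 0.18 without pair 1. The medians were 0.05 for gluconeogenesis, -0.02 for cytochrome P450 and conjugation, 0.01 for secreted plasma proteins, 0.03 for the respiratory chain and 0.01 for cytosolic ribosomal proteins.

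The levels in the captured sheath show where the whole section stands between both captures. Rhbg was at 10.01, 8.98 and 9.14 in PV, Slc1a2 at 13.01, 12.94 and 11.63, Glul at 13.73, 12.81 and 12.88, and Oat at 15.27, 14.79 and 15.17. For these 4 genes every pair had its SC level above NPV and below PV. The order was not particular to them: it also held in every pair for Rdh9, Slc13a3, Tnfrsf19 and Sp5, among others. For Axin2 and Tbx3 it did not hold in pair 2. Rspo3 was at 6.99, 6.39 and 6.14 in PV, which overlaps with SC. The comparison of PV with NPV uses the same NPV arrays, and that of PV with SC the same SC arrays, so these values are set side by side and not read as further support.

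**Figure D4:**
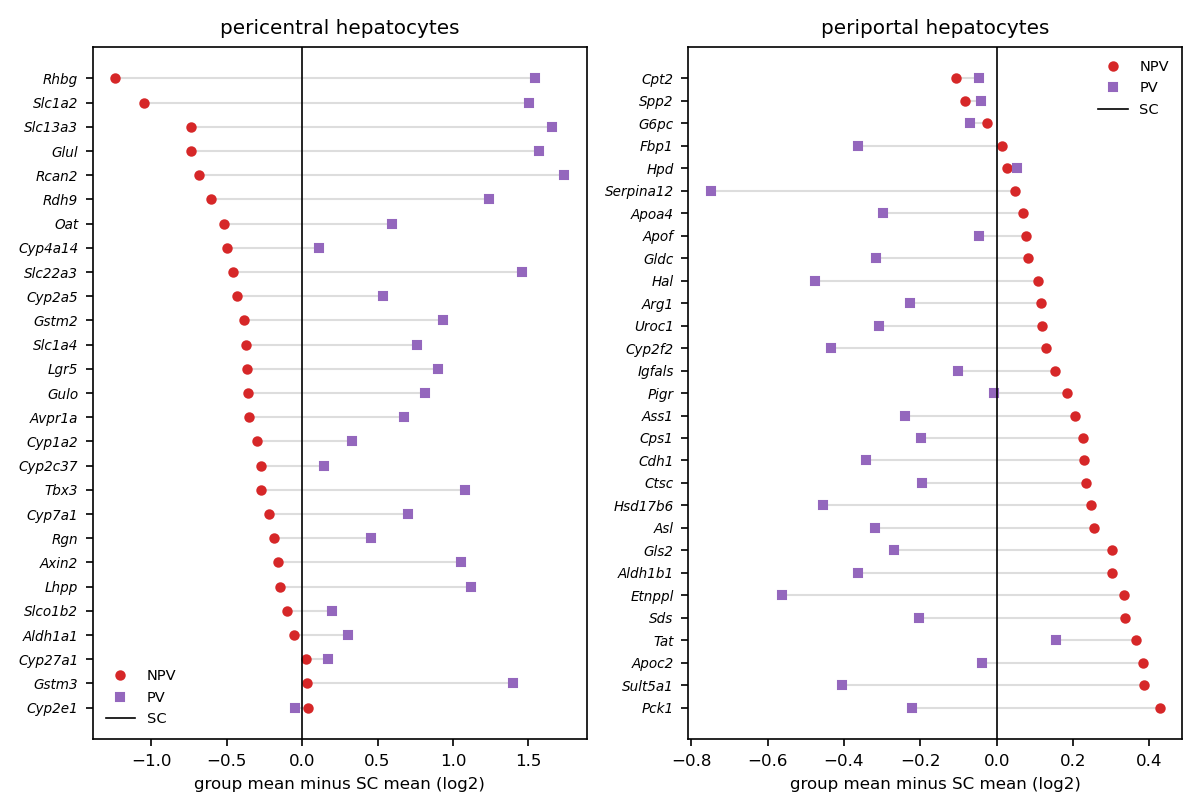
Group mean minus SC mean (log2) of the measured pericentral and periportal genes, with NPV as red circles and PV as purple squares, and the SC mean at 0. Rhbg, Slc1a2, Glul and Oat are among the genes with NPV left and PV right of 0. The probe of Cyp2e1 was at the ceiling of the scale in all groups, so its place near 0 cannot be read. NPV and PV values share the SC arrays.

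Beyond the lists, the leading genes by p value were mixed. Among those lower in NPV, Meg3, an imprinted long non-coding RNA, had levels of 5.94, 5.37 and 7.42 in NPV, against 7.29, 6.34 and 8.38 in SC. It was lower in all 3 pairs, by 1.09 on the log2 scale (difference -1.09, SE 0.14), and its adjusted p in limma was 0.700, 0.0331 to 1.00 over the alternatives. Gna14, a G protein alpha subunit, had levels of 7.48, 7.34 and 8.84 in NPV, against 8.51, 8.0 and 9.90 in SC, at a difference of -0.91 (SE 0.14). Bst2, the interferon-induced tetherin, had levels of 10.18, 9.07 and 9.01 in NPV, against 10.91, 9.79 and 9.67 in SC, and differed by -0.71 (SE 0.12). For these 3 genes the pairs agreed more closely than the groups, which overlapped. Vldlr, a lipoprotein receptor, differed by -0.76 (SE 0.14), Myo19, a myosin of mitochondria, by -0.70 (SE 0.12) and the uroplakin Upk1a by -0.75 (SE 0.13). Myo19 was detected on 2 of 3 NPV arrays and Upk1a on 1 of 3. Ier5l, not well above background on any NPV array, was at least 1.14-fold lower there and passed the detection filter through the SC arrays alone. In PV, Meg3 was at 8.83, 8.37 and 9.93, Gna14 at 9.73, 9.40 and 10.15, and Vldlr at 8.60, 8.68 and 10.19. For these genes every pair had its SC level above NPV and below PV. Bst2, Myo19, Upk1a and Ier5l did not have this order in every pair.

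The genes higher in NPV were mostly dim. Tmem131 had levels of 6.53, 6.29 and 6.81 in NPV, against 6.19, 5.48 and 5.83 in SC, with no overlap and a difference of 0.71 (SE 0.16). Mpv17, an inner mitochondrial membrane protein, had levels of 9.73, 9.62 and 10.22 in NPV, against 9.12, 8.95 and 9.83 in SC. It differed by 0.56 (SE 0.13), but its other 4 probes differed by -0.02 to 0.37. Fhdc1, Nup54, a nucleoporin, and Gpx8, a peroxidase of the endoplasmic reticulum, were not well above background on any SC array and were at least 1.19-fold, 1.32-fold and 1.33-fold higher in NPV. Each of them passed the detection filter through the NPV arrays alone, as 32 of the 17819 probes did, so their direction was fixed by the filter. Abhd8, Gatd1, Rpgrip1l, Sars2, Ube2e3 and Col11a1 differed by 0.52 to 0.64. Abhd8 and Rpgrip1l were each detected on 1 of 3 SC arrays, and Col11a1 on 2 of 3. The 1 probe higher with an intensity-dependent prior variance was that of mt-Nd4l, a mitochondrially encoded subunit of complex I, which differed by 0.47 (SE 0.12) and was chosen after its values were seen.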

How the data were processed

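The authors' deposited non-normalized table holds the average bead intensity of every probe, array by array, beside its detection p-value, per the file headers; their processed intensity table was deposited as well, with a normalization not stated there. Per the submitters' processing notes BeadStudio 3 was used, and the labels' protocols give laser capture, Tri-reagent extraction, and cDNA synthesis from a T7-(dT)24 primer. Intensities were background-corrected from the detection p-values (neqc, offset 16), quantile-normalized over the 9 arrays and put on a log2 scale. The probes kept, with a detection p below 0.05 on 3 or more of these 6 arrays, were fitted with limma 3.58.1 (R 4.3.3), with the label number as a block, and adjusted by Benjamini-Hochberg over 17819 probes.

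The deviations of same-numbered arrays from their group means correlated at 0.587, 0.746 and 0.876, and the numbers were used as pairs. NPV 3 and SC 3 shared a profile apart from the rest, at a correlation of 0.993 with each other. The remaining arrays of both groups therefore deviate together whatever their numbers. For those arrays the values cannot tell whether the numbers pair the samples. The number of arrays limits the precision. For a gene with several probes the brightest on average stands for it. Gene names came from RefSeq by accession for 29370 probes, by symbol for 3695 and by synonym for 3265; 8951 kept the name in the file. The fit was tested on simulated data.

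Named genes are Glul, Rhbg, Rspo3 and Gls2, up to 12 per direction by size among called genes and otherwise by smallest p, and up to 5 per list by smallest p; others are marked. The members and lists were chosen with earlier results of these data known. A gene not detected in 1 group has a bound, against the higher of its own signal and the lowest detected signal on each array. The alternatives changed the block, the arrays, the normalization, the background correction, the offset, the filter, the prior variance, the probe unit and the pairs used. Promoters were read from RefSeq sequences on GRCm38.p6.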

Additional observations from a re-analysis of the deposited data

How the results depend on the processing

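In limma, no probe passed an adjusted p of 0.05 with the pair as a block (1179 at an unadjusted p under 0.05), and none did without the replicate block (203), so pairing changed no call. The count was 5 in the authors' processed table, all lower in NPV (0 higher), 4 without background correction, all lower, 3 with an offset of 50, all lower, and 15 with a prior variance following intensity (14 lower, 1 higher). It was 0 when any 1 pair was left out (731 to 1434 at an unadjusted p under 0.05) and under the remaining settings. The cause was not tested. Scaling to equal array medians moved the median of all genes to -0.15 and the split at an unadjusted p under 0.05 to 168 higher and 2121 lower. Over all settings the median was -0.45 to -0.25 for pericentral hepatocytes, -0.66 to -0.26 for central vein endothelium, -0.32 to -0.07 for sinusoidal and general endothelium, -0.43 to -0.09 for lymphocytes, and 0.06 to 0.21 for periportal hepatocytes. Of the genes given a difference or a bound here, only Gpm6a changed direction under any of the 16 alternatives that gave a value. It was -0.18 without pair 3. Few arrays and signals close to background limit what the dim genes show.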
